A study of Mus musculus with 6 samples.

Results

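The genes of the vessel lining were followed in lung buds of mouse embryos at E11.5 in which the genes of the histone deacetylases Hdac1 and Hdac2 were targeted for deletion in the epithelium. The set holds 43 listed genes of endothelial identity and vessel growth, taken by name out of the 19938 genes measured. Each of the 43 had 1 probe set (called a probe here) assigned to it alone, so no member had to be left out. The series compares 3 control arrays with 3 DKO arrays. Control buds carried the Shhcre allele alone, which expresses Cre recombinase from the Sonic hedgehog locus. DKO buds carried the same allele together with floxed copies of both genes (Shhcre:Hdac1fl/fl; Hdac2 fl/fl). All 6 samples came from a mixed C57BL/6, 129X1 and 129S1 background. Shhcre is active in the lung epithelium and not in the endothelium, so the vessels of DKO buds are not the cells in which the floxed genes are targeted. The labels name the samples as biological replicates without saying whether 1 sample was 1 embryo or a pool, and the p-values therefore measure the spread between these samples.

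Endothelial cells form the inner wall of blood and lymph vessels. In the early lung they make a capillary plexus in the mesenchyme around each bud. They respond to VEGF through the receptor tyrosine kinases Kdr, Flt1 and Flt4 and to angiopoietins through Tek, and transcription factors of the ETS and SoxF families switch on their genes. Arteries are set apart by Notch signalling and by the connexins Gja4 and Gja5, veins by Nr2f2 and lymphatic vessels by Prox1. Dissected buds hold epithelium, mesenchyme, mesothelium, vessels and blood together. In such samples fewer cells of a type and less RNA per cell cannot be told apart.

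The targeted gene Hdac1 fell by 0.28 on the log2 scale (SE 0.05, adjusted p = 0.0193 by limma) and Hdac2 stood at -0.04 (adjusted p = 0.845). The position of both probes relative to the floxed exons is not known here. All values are log2 expression levels and all changes are DKO minus control. They were tested with limma over all 19938 genes at an adjusted p under 0.05, and intervals are 95% confidence intervals. Across genes, any pair of the 6 arrays had a correlation of 0.995 to 0.999. The DKO arrays scattered more than the controls: the median SD within a group was 0.08 in DKO and 0.06 in control over all genes, and 0.10 and 0.06 over the 43 members. Single array values are therefore given beside the change for many members.

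Angpt1 was the 1 member of the 43 that passed the threshold, and it rose. No member fell. The background over all genes was 1.03% called higher and 1.38% called lower, so 1 and 0 of 43 members lie near it. Most other members had a small upward displacement, but the interval included 0 for 30 of the 43 members (69.8%). The change was above 0 for 35 of 43 members (81.4%, against 50.2% of all genes) and below 0 for 8. Its median was 0.09 over the members, with quartiles of 0.02 and 0.16, and 0.00 over all genes, with quartiles of -0.06 and 0.06. In 11 members (25.6%) all 3 DKO values lay above all 3 control values, which was so for 8.36% of all genes. In 2 members (4.65%) all 3 lay below, against 10.4% of all genes. An unadjusted p under 0.05 was found for 12 members with a positive change, where 6.00% of all genes had one, and for 1 member with a negative change, where 6.83% had one. With the exception of Angpt1, the interval of every member lay within a 1.5-fold change in either direction.

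**Figure D1:**
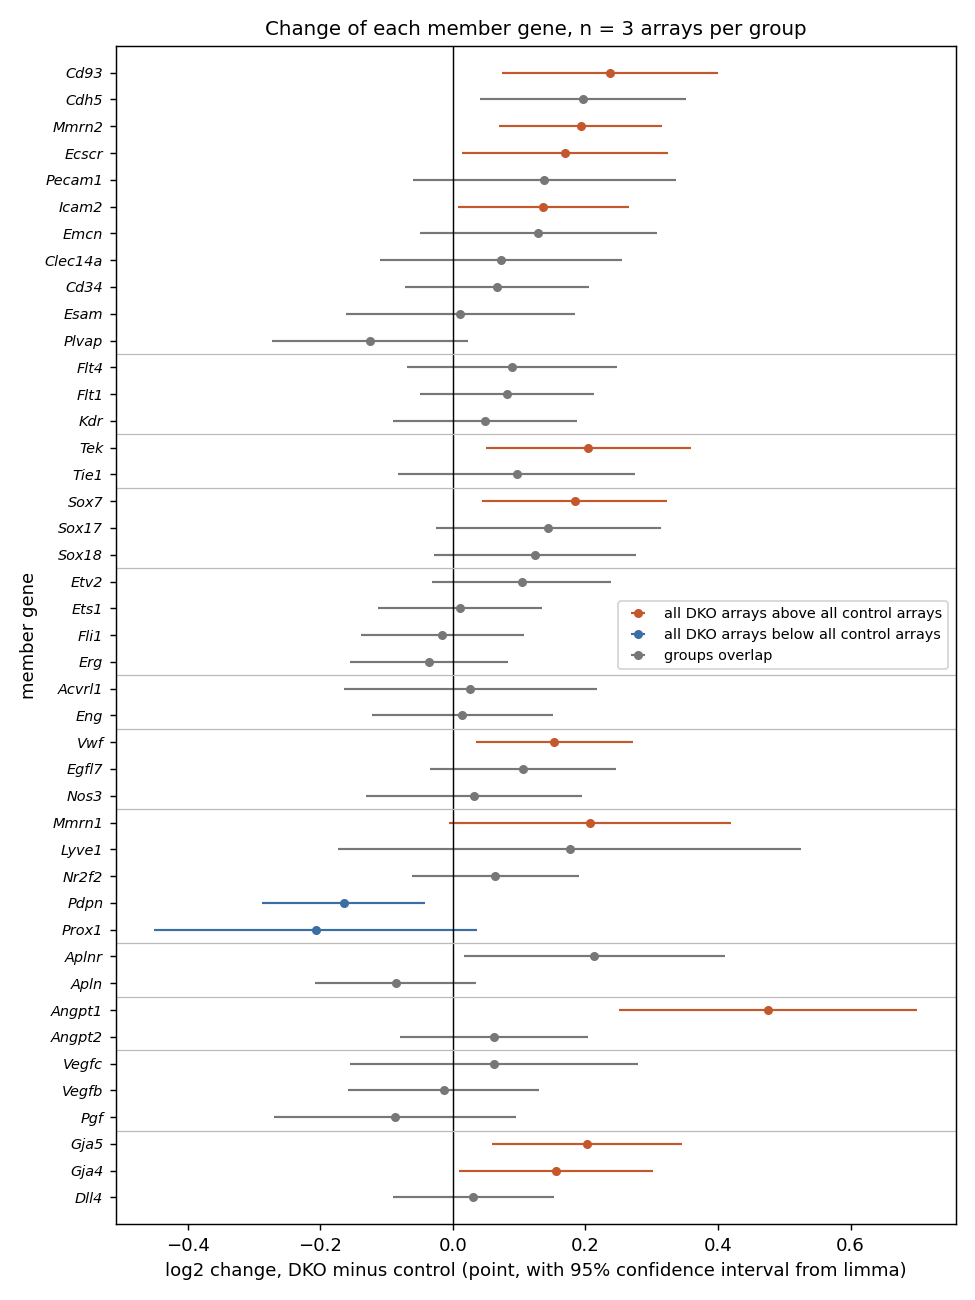
Log2 change (DKO minus control, x axis) of the 43 members (y axis, grouped by role), as points with 95% confidence intervals from limma, n = 3 arrays per group. Orange and blue mark members whose groups did not overlap, 11 upward and 2 downward. Angpt1 stands furthest right at 0.48, and 35 points lie to the right of 0.

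The displacement differed in size between the 3 DKO arrays. Averaged over the members, the level minus the control mean was 0.13 on DKO 1, 0.09 on DKO 2 and 0.04 on DKO 3. The same average was 0.01, 0.02 and -0.02 on controls 1 to 3, so the DKO arrays lay above the control arrays, DKO 3 by the least. Over all genes the average was -0.03, 0.03 and -0.003 on the DKO arrays. On DKO 1, 33 members stood above their control mean, where 37.5% of all genes did. DKO 2 had 30 such members (58.8% of all genes) and DKO 3 had 28 (48.6% of all genes). DKO 1 held the highest of the 6 values for 16 members and DKO 2 for 15, but DKO 3 for only 3. These shares were 11.7%, 33.4% and 13.9% over all genes, so the count on DKO 2 lay near that of all genes. Of the DKO arrays alone, DKO 1 was the highest for 20 members (21.1% of all genes) and DKO 2 for 20 (50.5%). DKO 1 and DKO 2 were high in different members. DKO 1 led for Pecam1, Emcn, Tek, Mmrn1, Lyve1 and Angpt1, and DKO 2 for the SoxF factors, Gja5, Acvrl1 and Aplnr.

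**Figure D2:**
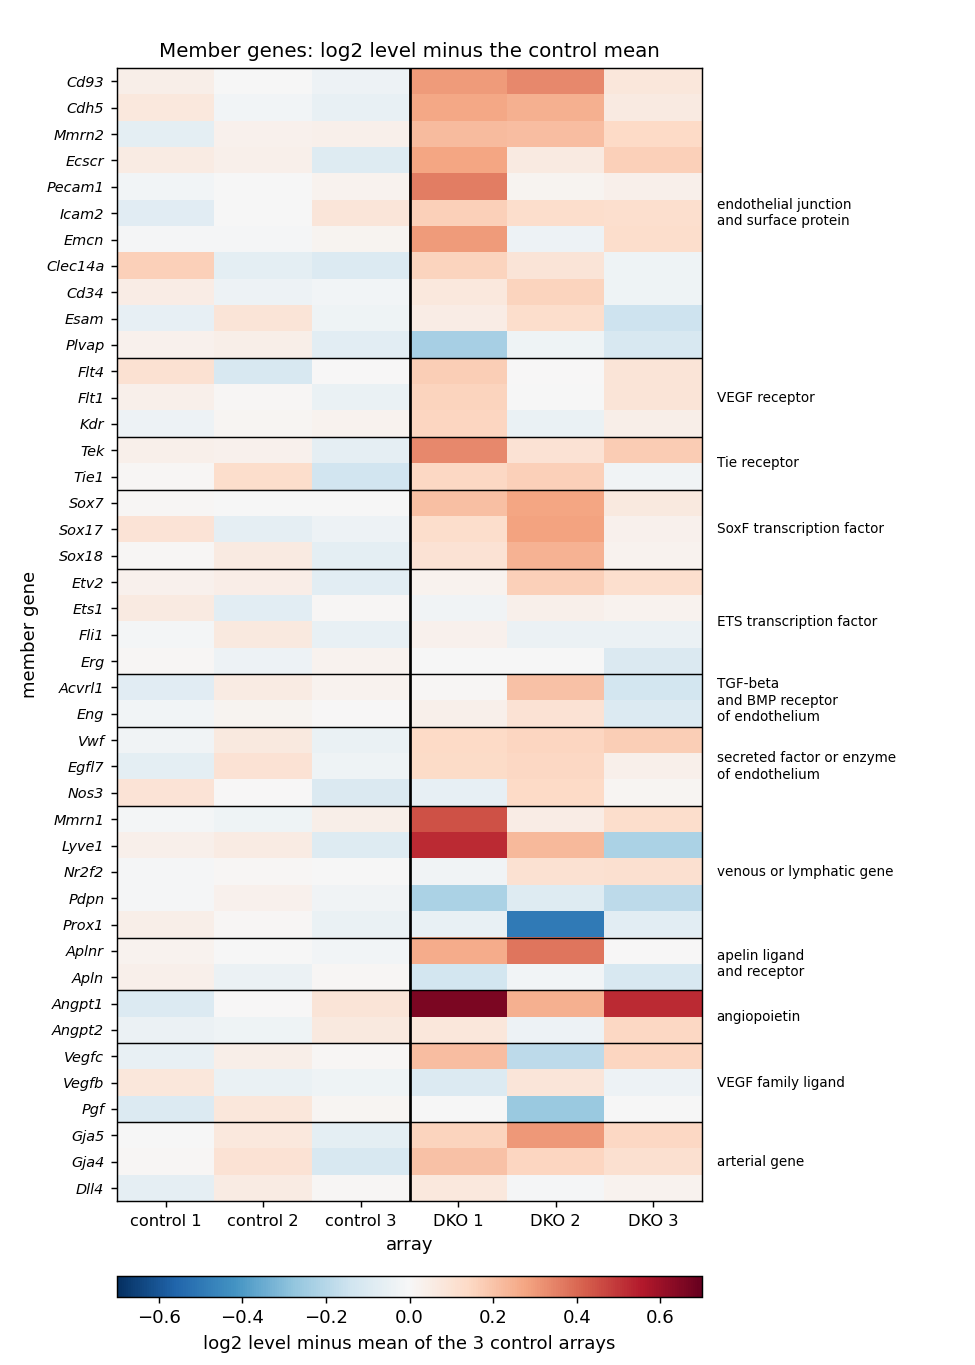
Colour map of the 43 members (rows, grouped by role) on the 6 arrays (columns), coloured by log2 level minus the mean of the 3 control arrays. Red cells dominate on DKO 1 and DKO 2, with 33 and 30 members above their control mean. Prox1 on DKO 2, at -0.49, is the deepest blue.

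Among the growth factors of the angiopoietin system, the ligand Angpt1 rose and its receptor Tek stood higher without passing. Angpt1, which activates Tek and is made largely by cells around vessels and by the heart, measured 8.51, 8.61 and 8.69 on controls 1 to 3 (probe 10428376). On DKO 1 to 3 it measured 9.26, 8.85 and 9.12. The groups were separated by 0.16, with DKO 2 nearest to the controls. Its change was 0.48 (SE 0.10, interval 0.25 to 0.70, n = 3 per group, adjusted p = 0.0445 by limma), which is 1.39-fold. That call rested on all arrays but DKO 2. Leaving out control 1, 2 or 3 in turn gave an adjusted p of 0.193, 0.166 and 0.106, and leaving out DKO 1 or DKO 3 gave 0.0979 and 0.145, at changes of 0.38 to 0.52. Without DKO 2 the change was 0.59 (adjusted p = 0.00212).

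Tek, the angiopoietin receptor, measured 9.45, 9.45 and 9.36 in control and 9.75, 9.52 and 9.60 in DKO. Its groups did not overlap, with DKO 1 the highest, and the change was 0.20 (SE 0.07, interval 0.05 to 0.36, adjusted p = 0.216 by limma). The related orphan receptor Tie1 measured 9.45, 9.57 and 9.31 in control and 9.59, 9.61 and 9.42 in DKO, where DKO 3 lay inside the control range. The Tie1 change was 0.10 (SE 0.08, adjusted p = 0.722). Angpt2, a context-dependent ligand of Tek released by endothelium itself, had overlapping groups. DKO 1 and DKO 3 lay above the controls and DKO 2 among them. The Angpt2 values were 7.84, 7.85 and 7.95 in control and 7.96, 7.84 and 8.02 in DKO, a change of 0.06 (interval -0.08 to 0.20).

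The start regions of the Tek and Tie1 genes are shown because these receptors of 1 family differed in whether their groups separated, and because ETS and SoxF factors are themselves members. Each window runs from 250 bases before to 50 bases after the annotated start, 5′ to 3′ on the gene's strand, from RefSeq on GRCm38.p6. Capitals mark the ETS core AGGAAG on either strand. The Tek window held none of the 3 motifs searched, and the Tie1 window held AGGAAG 2 times, on the other strand.
Tek, chr4:94739039-94739338, plus strand: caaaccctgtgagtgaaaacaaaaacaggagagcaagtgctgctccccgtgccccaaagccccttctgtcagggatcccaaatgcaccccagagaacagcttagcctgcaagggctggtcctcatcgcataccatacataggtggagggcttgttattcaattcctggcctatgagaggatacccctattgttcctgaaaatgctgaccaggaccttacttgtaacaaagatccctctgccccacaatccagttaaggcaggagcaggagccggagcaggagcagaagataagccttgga
Tie1, chr4:118489800-118490099, minus strand: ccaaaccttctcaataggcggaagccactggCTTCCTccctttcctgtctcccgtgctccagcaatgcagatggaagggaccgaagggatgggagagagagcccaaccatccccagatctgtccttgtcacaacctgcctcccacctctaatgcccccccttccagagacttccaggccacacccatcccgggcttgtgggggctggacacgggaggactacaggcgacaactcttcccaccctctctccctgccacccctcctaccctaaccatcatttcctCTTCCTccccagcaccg

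RefSeq windows were matched for 23 of the 43 members, 29 windows in all. On both strands AGGAAG was found in 12 of these 29 windows (41.4%), against 35.4% of all 32851 windows of the same length. A second ETS core, CCGGAAG, whose last bases can overlap the first, was found in 0 of 29 (8.86% of all windows). The SOX core ACAATG was found in 2 of 29 (12.6% of all windows), 1 of Erg and 1 of Mmrn1. The motifs were chosen with the expression values known, and a match is a description of letters in these windows only. Other spellings of the ETS and SOX cores were not searched, so a window without a match can hold them.

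The groups overlapped for all 6 VEGF receptors and ligands among the members, as they did for most genes (18.8% of all genes had separate groups). Kdr, the main VEGF receptor of endothelium, measured 9.80, 9.85 and 9.86 in control and 9.99, 9.79 and 9.88 in DKO. DKO 2 was the lowest of all 6 values, and the change was 0.05 (SE 0.06, interval -0.09 to 0.19, n = 3 per group, adjusted p = 0.840 by limma). Flt1, a VEGF receptor that also acts as a decoy, measured 9.27, 9.24 and 9.19 in control and 9.39, 9.23 and 9.33 in DKO. Its change was 0.08 (SE 0.06, interval -0.05 to 0.21), and Flt4, the receptor for Vegfc in veins and lymphatics, stood at 0.09 (SE 0.07, interval -0.07 to 0.25). On all 3 receptors DKO 1 was the highest of the 6 arrays. Of the ligands, Vegfc, which drives lymphatic growth, measured 8.76, 8.36 and 8.70 in DKO, around a control range of 8.49 to 8.59. DKO 2 was the lowest and DKO 1 the highest of all arrays for Vegfc, and the change was 0.06 (interval -0.15 to 0.28). The Flt1 ligands Vegfb (-0.01, interval -0.16 to 0.13) and Pgf (-0.09, interval -0.27 to 0.09) also overlapped between the groups.

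**Figure D3:**
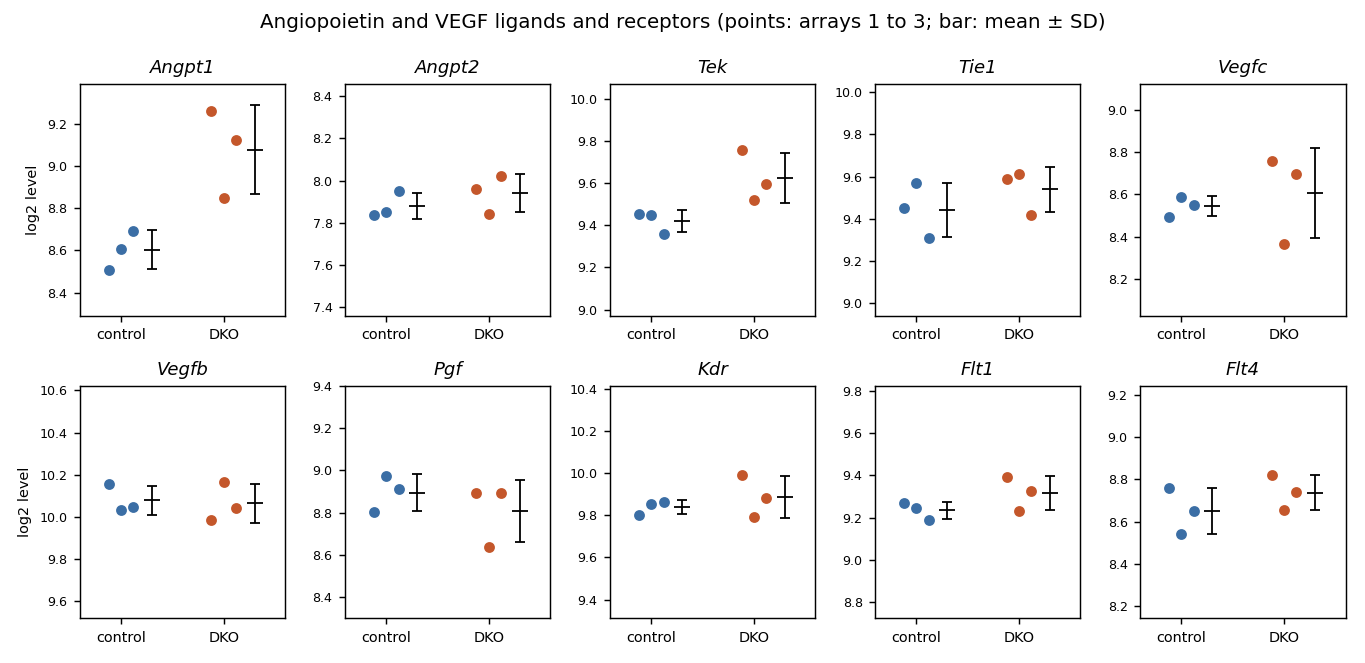
Log2 level (y axis, each panel spanning the same number of log2 units) of the angiopoietins, Tie receptors, VEGF ligands and VEGF receptors in control (blue) and DKO (orange) arrays 1 to 3, with mean ± SD as a bar. The groups are apart for Angpt1 and Tek and overlap in the other 8 panels.

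The ligand Vegfa itself is not a member but was listed among further vessel genes. It measured 10.40, 10.40 and 10.39 in control and 10.61, 10.46 and 10.54 in DKO. Its groups did not overlap, and its change of 0.14 (SE 0.06, interval 0.02 to 0.26, adjusted p = 0.317) did not pass. The VEGF and semaphorin co-receptors stood the other way: Nrp2 at -0.26 (SE 0.06, adjusted p = 0.0608) with separate groups, and Nrp1 at -0.14 (SE 0.07, adjusted p = 0.473) with overlapping groups.

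In the apelin system the receptor and the ligand had opposite signs. Aplnr, a G protein-coupled receptor of veins and growing vessels, measured 10.19, 10.16 and 10.15 in control and 10.43, 10.54 and 10.17 in DKO. DKO 3 lay within the control range while DKO 1 and DKO 2 were well above it, and the change was 0.21 (SE 0.09, interval 0.02 to 0.41, adjusted p = 0.341). Its ligand Apln, made by sprouting tip cells, measured 8.33, 8.25 and 8.30 in control and 8.16, 8.27 and 8.18 in DKO. The Apln change was -0.09, with an SE of 0.05 and an interval of -0.21 to 0.04. Eng and Acvrl1, receptors through which endothelium reads BMP9 and BMP10, stood at 0.01 and 0.03. For both, DKO 2 was the highest and DKO 3 the lowest of the 6 arrays, and the sign of both turned when DKO 2 was left out (-0.03 and -0.06). That of Acvrl1 turned without control 1 too (-0.01).

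Of the 11 junction and surface genes, 10 had a positive change (50.2% of all genes did), 4 had separate groups with DKO higher (8.36% of all genes) and limma called 0 (1.03% of all genes called higher). Cd93, a lectin-like receptor of angiogenic endothelium, measured 10.33, 10.29 and 10.26 in control and 10.59, 10.63 and 10.37 in DKO. DKO 3 was nearest to the controls, and the change was 0.24 (SE 0.07, interval 0.07 to 0.40, n = 3 per group, adjusted p = 0.164 by limma). Without DKO 3 it was 0.32 and passed (adjusted p = 0.0481). Mmrn2, a matrix protein that binds Cd93, measured 8.21, 8.32 and 8.32 in control and 8.51, 8.50 and 8.42 in DKO. All 3 DKO values lay at least 0.10 above the controls, and the change was 0.19 (SE 0.05, interval 0.07 to 0.32, adjusted p = 0.134). Clec14a, a further Mmrn2-binding surface protein, was 7.81, 7.58 and 7.55 in control and 7.80, 7.74 and 7.62 in DKO, so control 1 was its highest value and the change was 0.07 (interval -0.11 to 0.26).

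Cdh5, the cadherin of endothelial junctions, measured 11.12, 11.02 and 10.99 in control and 11.32, 11.29 and 11.11 in DKO. DKO 3 fell just below control 1, and the change was 0.20 (SE 0.07, interval 0.04 to 0.35, adjusted p = 0.243). Pecam1 measured 9.65, 9.67 and 9.70 in control and 10.03, 9.69 and 9.71 in DKO, so DKO 1 alone stood apart. Its change was 0.14 (SE 0.09, interval -0.06 to 0.34, adjusted p = 0.607). The sialomucin Emcn had a similar pattern, with 11.34 on DKO 1 and 11.01 and 11.17 on DKO 2 and DKO 3 against 11.03 to 11.06 in control. Icam2, a junctional ligand for leukocyte integrins, was above all controls on all 3 DKO arrays (8.28, 8.23 and 8.23 against 8.03, 8.11 and 8.20), with a change of 0.14 (SE 0.06, adjusted p = 0.355). Ecscr, a surface regulator of endothelial migration, measured 9.536, 9.51 and 9.39 in control and 9.75, 9.542 and 9.65 in DKO. Its groups were 0.01 apart, and the change was 0.17 (SE 0.07, interval 0.01 to 0.32, adjusted p = 0.340 by limma). Cd34 (0.07) and the junction protein Esam (0.01) overlapped between the groups. Plvap, which forms the diaphragms of fenestrated capillaries, was the 1 surface gene with a negative change, at -0.12 (SE 0.07, interval -0.27 to 0.02).

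**Figure D4:**
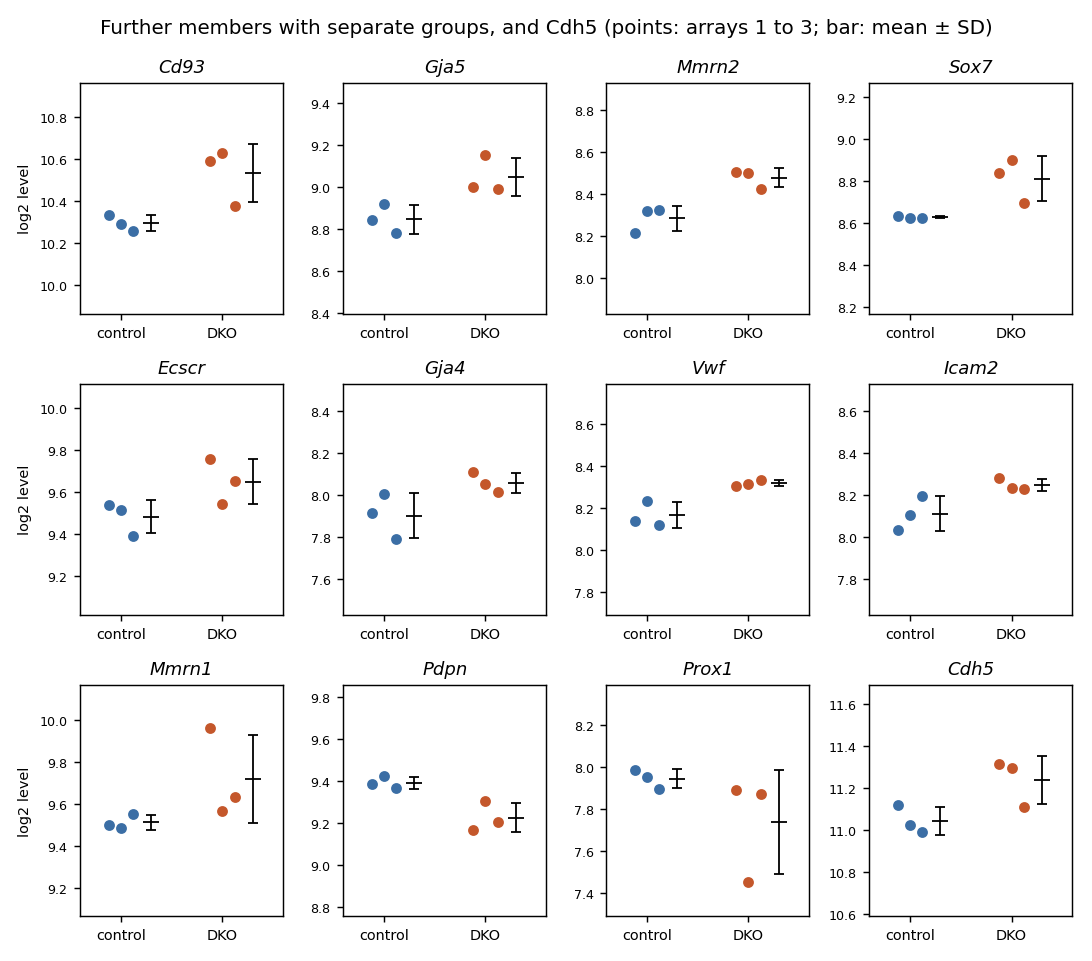
Log2 level (y axis, each panel spanning the same number of log2 units) of 11 further members with separate groups and of Cdh5, on control (blue) and DKO (orange) arrays 1 to 3, with mean ± SD as a bar. Pdpn and Prox1 are the 2 with DKO below control, and DKO 3 of Cdh5 lies just under control 1.

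All 3 SoxF transcription factors had a change above 0.1, and 3 of the 4 ETS factors lay near 0. Limma called 0 of these 7. The SoxF changes rested partly on DKO 2: without it Sox7, Sox17 and Sox18 stood at 0.14, 0.08 and 0.06, and with array weights at 0.09, 0.05 and 0.05. Sox7 measured 8.63, 8.62 and 8.62 in control and 8.84, 8.90 and 8.69 in DKO, with separate groups. Its change was 0.18 (SE 0.06, interval 0.04 to 0.32, n = 3 per group, adjusted p = 0.219 by limma). Sox17, which also acts in arteries, measured 8.03, 7.87 and 7.89 in control and 8.05, 8.21 and 7.96 in DKO, a change of 0.14 (SE 0.08, adjusted p = 0.496). Sox18, which induces Prox1 in lymphatic development, measured 8.99, 9.04 and 8.91 in control and 9.09, 9.23 and 9.01 in DKO, a change of 0.12 (SE 0.07, adjusted p = 0.524). In all 3 genes DKO 2 was the highest of the DKO arrays (50.5% of all genes) and DKO 3 the lowest (23.7%). The ETS factors Erg (-0.04, interval -0.15 to 0.08), Fli1 (-0.02, interval -0.14 to 0.11) and Ets1 (0.01, interval -0.11 to 0.13) lay near 0 with overlapping groups. Etv2, the ETS factor that starts the endothelial programme in the younger embryo, stood at 0.10 (SE 0.06, interval -0.03 to 0.24). The difference between the SoxF and ETS families was not tested.

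Both arterial connexins had separate groups with DKO higher (8.36% of all genes), and the arterial Notch ligand did not. Limma called 0 of these 3, and the difference between the connexins and the ligand was not tested. Gja5 measured 8.84, 8.92 and 8.78 in control and 9.002, 9.15 and 8.99 in DKO. The gap between the groups was 0.07, and the change was 0.20 (SE 0.06, interval 0.06 to 0.35, n = 3 per group, adjusted p = 0.181 by limma). Gja4 measured 7.91, 8.004 and 7.79 in control and 8.11, 8.05 and 8.01 in DKO, a gap of 0.01, and differed by 0.16 (interval 0.01 to 0.30, adjusted p = 0.351). Dll4, the Notch ligand of arterial and tip cells, had overlapping groups (0.03, SE 0.05, interval -0.09 to 0.15). The start regions of the connexin genes are shown as the arterial members with separate groups, in the same form as those of Tek and Tie1. The Gja5 window held AGGAAG 1 time, in capitals, and the Gja4 window none of the 3 motifs.
Gja5, chr3:97032152-97032451, plus strand: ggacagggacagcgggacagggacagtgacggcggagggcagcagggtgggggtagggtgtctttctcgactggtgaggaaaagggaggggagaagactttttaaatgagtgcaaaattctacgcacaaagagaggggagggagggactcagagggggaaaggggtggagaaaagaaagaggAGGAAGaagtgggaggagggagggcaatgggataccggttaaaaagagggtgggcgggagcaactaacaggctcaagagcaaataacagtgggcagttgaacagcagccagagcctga
Gja4, chr4:127313990-127314289, minus strand: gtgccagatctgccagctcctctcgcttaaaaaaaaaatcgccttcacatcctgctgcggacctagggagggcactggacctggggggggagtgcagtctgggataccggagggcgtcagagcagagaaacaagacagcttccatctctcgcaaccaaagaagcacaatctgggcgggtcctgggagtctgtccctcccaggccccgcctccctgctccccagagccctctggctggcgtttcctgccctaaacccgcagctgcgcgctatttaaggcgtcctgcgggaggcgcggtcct

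The venous and lymphatic members did not move as 1 group. Nr2f2, the venous determinant that is also strong in mesenchyme, stood at 0.06 (SE 0.06, interval -0.06 to 0.19). Prox1, the lymphatic determinant, measured 7.98, 7.95 and 7.90 in control and 7.89, 7.45 and 7.87 in DKO. All DKO values lay below the controls, by 0.01 on DKO 1 and far more on DKO 2, and the change was -0.21 (SE 0.11, interval -0.45 to 0.04, adjusted p = 0.493). Pdpn, a lymphatic membrane protein also made by mesothelium and lung epithelium, measured 9.38, 9.42 and 9.36 in control and 9.17, 9.30 and 9.21 in DKO. Its change was -0.16 (SE 0.05, interval -0.29 to -0.04, adjusted p = 0.210). The hyaluronan receptor Lyve1, found on lymphatic endothelium and on some macrophages, scattered more than any other member. It measured 9.41, 9.11 and 8.67 in DKO against 8.92, 8.94 and 8.80 in control, so DKO 1 was the highest and DKO 3 the lowest of all arrays (0.18, SE 0.15, interval -0.17 to 0.52). Mmrn1, a protein of lymphatic endothelium and of platelets, measured 9.50, 9.48 and 9.55 in control and 9.96, 9.57 and 9.63 in DKO. Its groups were 0.01 apart, and the change was 0.21 (SE 0.09, interval -0.01 to 0.42, adjusted p = 0.408).

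The secreted factors Vwf and Egfl7 had small positive changes, and the enzyme Nos3 lay near 0. Vwf, the clotting factor of endothelium and platelets, was even on the DKO arrays at 8.31, 8.31 and 8.33, above 8.14, 8.24 and 8.12 in control. Its change was 0.15 (SE 0.05, interval 0.03 to 0.27, adjusted p = 0.226). Egfl7, a matrix-bound regulator of vessel tubes, stood at 0.11 (SE 0.06, interval -0.03 to 0.25), and Nos3, the endothelial nitric oxide synthase, at 0.03 (SE 0.07, interval -0.13 to 0.20).

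Further genes of the vessels were taken from 3 lists that hold none of the 43 members. Of the 61 genes measured, limma called 3 higher (1.03% of all genes) and 0 lower (1.38% of all genes). These were Calcrl, Cyyr1 and Mef2c, and 39 of the 61 changes were above 0 with a median of 0.03. Calcrl, the receptor subunit that reads adrenomedullin on endothelium, measured 10.13, 10.24 and 10.25 in control and 11.09, 11.13 and 11.15 in DKO. The rise of 0.92 (SE 0.05, adjusted p = 0.000135 by limma) was 1.89-fold, several times the displacement of any surface gene among the members. Its partner Ramp2 and its ligand Adm stood at 0.11 and 0.04 with overlapping groups. Cyyr1 rose 1.21-fold (0.27, SE 0.06, adjusted p = 0.0443) and Mef2c, a transcription factor of muscle and vessels, rose 1.23-fold (0.30, SE 0.06, adjusted p = 0.0283). Both calls were lost when any array but DKO 2 was left out (adjusted p = 0.0563 to 0.206 for Cyyr1 and 0.0756 to 0.144 for Mef2c).

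The 3 lists differed from each other. Of 20 further endothelial genes, 18 had a positive change, 7 had separate groups with DKO higher (8.36% of all genes), 0 with DKO lower (10.4% of all genes), and the median was 0.13. Their average displacement was 0.18, 0.16 and 0.12 on DKO 1 to 3, and -0.04 to 0.03 on the controls. Named members of that list with separate groups were the vascular phosphatase Ptprb (0.19), Apold1 (0.21) and the sphingosine receptor S1pr1 (0.25), at adjusted p of 0.0749 to 0.170, and the junction gene Cldn5 stood at 0.14 with overlapping groups. The 26 ligands, receptors and signalling genes had a median of 0.02 and 0 calls. The largest changes there were in the chemokine receptor Cxcr4 (-0.31, adjusted p = 0.0531), Nrp2 and the ligand Gdf2 (0.21, SE 0.11, adjusted p = 0.517, overlapping groups). The 15 blood and vessel transcription factors had a median of -0.03. Their groups were separate upward in 3 (8.36% of all genes) and downward in 3 (10.4%). The forkhead genes Foxc2 (-0.46, SE 0.11, adjusted p = 0.0698) and Foxc1 (-0.30, SE 0.08, adjusted p = 0.109), which act in vessels and in mesenchyme, had all DKO values below the controls and did not pass. The forkhead genes Foxf1 (-0.06) and Foxo1 (0.03) had overlapping groups. Epas1 (0.20, SE 0.06, adjusted p = 0.136 by limma) and Hhex (0.10, SE 0.05, adjusted p = 0.533) had all DKO values above the controls and did not pass either. Apold1, S1pr1, Ptprb, Cldn5, Ramp2, Adm, Nrp1, Foxc1, Foxc2, Foxf1, Foxo1, Epas1, Hhex, Pdgfrb and Cspg4 were chosen for naming after their values were seen.

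Of 12 measured markers of mural cells, the pericytes and smooth muscle that coat vessels, 2 fell (1.38% of all genes) and 0 rose (1.03%). The average of the 12, which includes the 2 large falls given next, was -0.10, -0.13 and -0.19 from the control mean on DKO 1 to 3. The G protein regulators Rgs5 and Rgs4 fell 2.06-fold (-1.05, SE 0.14, adjusted p = 0.00598 by limma) and 2.35-fold (-1.24, SE 0.18, adjusted p = 0.00771). The pericyte receptor Pdgfrb (0.12, SE 0.06, adjusted p = 0.522) and the proteoglycan Cspg4 (0.12, SE 0.06, adjusted p = 0.466) had separate groups on the other side. The median of the list was 0.06, and 9 of the 12 changes were above 0. The groups were separate upward in 4 of the 12 (8.36% of all genes) and downward in 3 (10.4%), so the list did not fall as a whole.

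Markers of other cell types also moved between the groups, and their part in the endothelial values was not tested. Over all genes 1.03% were called higher and 1.38% lower. The 13 lung epithelial markers all lay lower in DKO on every array and 9 fell, with a mean log2 level of 9.85 to 9.95 in control and 9.30 to 9.47 in DKO. Both platelet chemokine genes among 6 megakaryocyte markers rose, Ppbp by 1.48-fold (0.57, SE 0.07, adjusted p = 0.00513 by limma) and Pf4 by 1.31-fold (0.38, SE 0.05, adjusted p = 0.00780). The mean level of these 6 was 8.82 to 8.87 in control and 8.98 to 9.19 in DKO, which stands beside the values of Vwf, Mmrn1 and Cd34. Of 12 cardiac muscle markers 1 rose, the atrial gene Myl7 (0.80, SE 0.08), with mean levels of 8.13 to 8.20 in control and 8.32 to 8.43 in DKO. That stands beside Angpt1, which heart muscle also makes. The 5 endocardial markers were not called, with mean levels of 9.61 to 9.63 in control and 9.67 to 9.72 in DKO. Their largest change was 0.16, for Npr3 and for Hapln1. Groups were separate upward in 3 of the 6 megakaryocyte, 5 of the 12 cardiac and 3 of the 5 endocardial markers (8.36% of all genes). In each of these lists 0 were separate downward (10.4% of all genes).

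Of 9 mesothelial markers 3 rose (Calb2, Gpm6a and Upk1b), and 5 had separate groups upward (8.36% of all genes). Their mean level was 8.64 to 8.65 in control and 8.90 to 8.99 in DKO. Pdpn, which mesothelium and lung epithelium also make, lay lower, and so did the 13 lung epithelial markers. Which cells the Pdpn change came from was not tested. The 12 mesenchymal markers had 2 rises (Fgf10 and Meox2), 1 fall (Twist2) and a median of -0.03. Their mean level was 10.51 to 10.54 in control and 10.56 to 10.64 in DKO. None of the 12 leukocyte markers was called, and 10 had a negative change. Their groups were separate downward in 6 (10.4% of all genes) and upward in 0 (8.36%). Their mean level was 8.31 to 8.35 in control and 8.16 to 8.23 in DKO, beside Lyve1, Cd34 and Fli1. The 10 erythroid markers were not called either, and their mean levels overlapped (9.89 to 10.06 in control, 9.998 to 10.12 in DKO). In an alternative, 12 members also known outside endothelium were left out. They were Pdpn, Cd34, Fli1, Ets1, Vwf, Mmrn1, Angpt1, Prox1, Nr2f2, Vegfb, Vegfc and Pgf. Lyve1, also found on some macrophages, was kept. Of the remaining 31, 28 had a positive change, with a median of 0.11. Of those 31, 8 had separate groups upward, against 8.36% of all genes, and 0 downward, against 10.4%. The 0 downward followed from the choice, because Prox1 and Pdpn were among the 12. So were Fli1, Vegfb and Pgf, whose changes were also negative. The average displacement of the 31 was 0.15, 0.13 and 0.03 on DKO 1 to 3, and -0.03 to 0.02 on the controls.

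**Figure D5:**
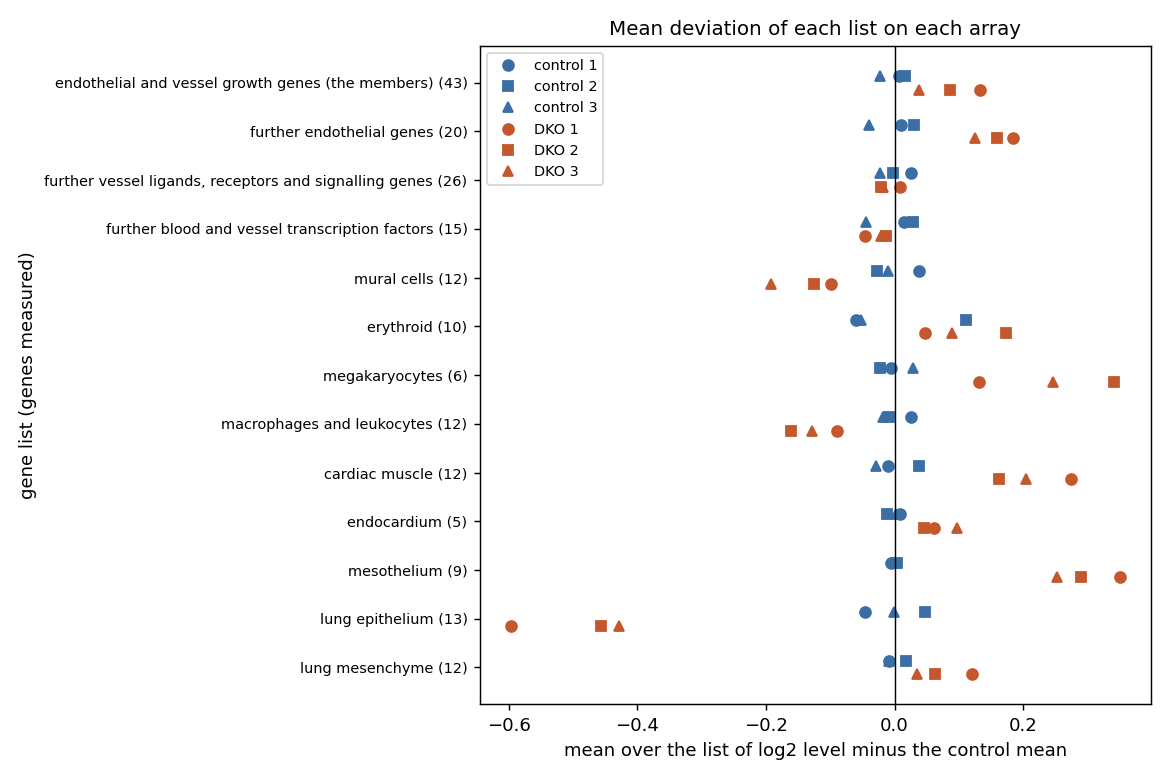
Mean over each gene list of log2 level minus the control mean (x axis) on control (blue) and DKO (orange) arrays, with the list and its number of measured genes on the y axis. The members lie at 0.13, 0.09 and 0.04 on DKO 1 to 3, the further endothelial genes at 0.18, 0.16 and 0.12, and the lung epithelial markers lie far to the left.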

How the data were processed

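Total RNA (100 ng per sample) from lung buds was amplified, labelled with biotin and hybridised to MoGene 1.1 ST arrays, per the labels. The authors deposited 1 log2 value for each of 35556 probes on 6 arrays. Their processing notes name oligo, RMA and limma, without versions or settings. The log base is not given in the sources used here and was taken as 2 from RMA and the range of 3.42 to 14.27. Array medians were 7.87 to 7.89, so changes in total RNA cannot be seen, and the number of arrays limits the precision. The genome build of the probes is not given in the sources used here.

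Probes were named from the platform annotation: 21789 had 1 gene, 1621 several and 12146 none. Entrez identifiers of 19856 genes matched RefSeq (GRCm38.p6), and 0 symbols changed. The brightest probe per gene was kept. A group effect was fitted for all 19938 genes (limma 3.58.1 under R 4.3.3, lmFit and eBayes, two-sided, Benjamini-Hochberg adjustment), and the procedure was checked on simulated data. Groups were taken from the sample titles.

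The members, the 12 further lists (152 of 158 entries measured) and the tests were chosen with earlier results of these data known. Members with an adjusted p under 0.05, separate groups or an unadjusted p under 0.05, and Kdr, Cdh5, Pecam1, Tek, Tie1 and Flt1, were described in full. The others were described by their change. Of the further lists, called genes, or up to 3 with the largest change, and Vegfa were named, and a few others chosen after their values were seen. Alternatives were the replicate block, array weights, eBayes settings, ordinary least squares, a second quantile normalization, median centring, the mean of all probes, a filter on the dimmest 30% of genes, leaving out each array, and leaving out members that mark other cell types.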

Additional observations from a re-analysis of the deposited data

How the results depend on the processing

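The count of 1 called member (Angpt1) became 4 with array weights (Angpt1, Tek, Vwf and Pdpn). That is 9.3% of the members, where 10% of all genes were called. The count was 0 with ordinary least squares and 0 with the replicate block. It was also 0 without the 12 members named above as known outside endothelium, which include Angpt1. Leaving out 1 array gave 0 to 1, the 1 being Cd93 without DKO 3 and Angpt1 without DKO 2. The replicate numbers are shared by the labels only: deviations of same-numbered arrays correlated at -0.06, 0.05 and 0.16, 3 of the 6 arrays matched their own number best, and with the replicate block Angpt1 had an adjusted p of 0.0641. Of 13 members with separate groups, 8 were left among the 31 that remained without those 12. Prox1 and Pdpn, the downward ones, were among the 12. Leaving out 1 array gave 15 to 22, while the share of all genes with separate groups went from 18.8% to 25.9% to 35.7%. It was 15 members (34.9%, all genes 30.2%) without DKO 1, 21 (48.8%, all genes 35.7%) without DKO 2 and 22 (51.2%, all genes 26.4%) without DKO 3. The median change was 0.05 with array weights and 0.05 to 0.11 without 1 array, and 35 members were above 0 under both other scalings. With array weights, which gave DKO 3 the most weight, the sign turned for Eng (-0.068), Esam (-0.10), Lyve1 (-0.11), Acvrl1 (-0.092), Clec14a (-0.0088) and Cd34 (-0.011), leaving 29 above 0. Leaving out 1 array turned the sign of members near 0. The lowest and highest changes were -0.00267 and 0.0971 for Kdr, -0.0451 and 0.0878 for Esam, -0.015 and 0.184 for Vegfc, -0.064 and 0.0266 for Vegfb, -0.0301 and 0.0677 for Eng. They were -0.025 and 0.0432 for Ets1, -0.0227 and 0.0814 for Nos3, -0.0616 and 0.104 for Acvrl1, -0.00025 and 0.0589 for Dll4 and -0.0433 and 0.0173 for Fli1. The calls among the 61 further vessel genes, 3 in the text (2.41% of all genes called), were 14 with array weights (10% of all genes). They were 6 with an eBayes trend (3.64% of all genes), 1 with ordinary least squares (0.0802%) and 1 with the replicate block (2.04%). A second quantile normalization gave 5 (2.72%), and leaving out the dimmest 30% of genes gave 7, with 603 genes called in all. Without 1 array they were 1 to 8: 8 without DKO 2 (4.07% of all genes) and 1 without any other (0.988% to 1.84%). Calcrl passed under every alternative (0.88 to 0.94).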
